A study of Mus musculus with 6 samples.

Results

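The focal adhesion scaffold genes Zyx, Tes, Vcl, Tln1, Pxn, Lpp, Ptk2 and Bcar1 were followed through an ATAC-seq experiment, in which the transposase Tn5 cuts accessible DNA and a read count over a region measures how open it is. Every region annotated to one of the 8 genes was taken, together with every region without a gene symbol within 50 kb of the gene span listed in the table. This gave 103 of 52957 regions. They comprised 6 promoter regions, whose centre lay within 1000 bp of the listed start site, 3 annotated regions farther out and 94 regions without a symbol. Tln1 regions were not analysed here, so that the 103 regions belonged to 7 genes.

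The experiment used NIH3T3 mouse fibroblasts, an established line whose chromosome number is abnormal. Both groups carried a knocked-in T3H48 hammerhead ribozyme, an RNA that can cut itself, inside intron 3 of the gamma-actin gene Actg1. In the active line (3 libraries) the ribozyme is meant to cut the Actg1 pre-mRNA, and in the inactive line (3 libraries) it is not. The labels name stable lines but neither the number of clones behind a group nor whether the libraries came from separate cultures, so that ribozyme activity and line identity cannot be told apart and p-values measure library-to-library spread, which may be technical only. Values were normalised reads per region, with nearly equal library totals of 6433944 to 6548535. The unscaled depth was estimated at 3710000 to 6840000 reads in active and 7330000 to 8960000 in inactive libraries, so values of low regions are less precise in the active line. Of listed fibroblast markers, promoter regions were analysed for 10 of 15, and their summed value was 2713 to 2937 in active and 3492 to 3613 in inactive libraries, with 2 of 11 such regions higher and 8 lower (limma, adjusted p under 0.05). Over all tested promoter regions, 22.4% were higher and 36.6% lower. Of 7 epithelial markers only Krt8 had an analysed promoter region (134 to 171 in active, 78 to 89 in inactive libraries), of 4 blood markers only Cd68 (51 to 69 in active, 51 to 57 in inactive libraries), and of 3 endothelial and 3 muscle markers 0. The part of this marker difference in the results below was not tested.

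Focal adhesions are the plaques through which integrins in the cell membrane hold the actin cytoskeleton to the extracellular matrix. Talin binds integrin tails and vinculin ties talin to actin. Around this core sit LIM domain proteins that gather on actin under tension, namely zyxin (Zyx), its relative LPP (Lpp) and testin (Tes). The adaptors paxillin (Pxn) and p130Cas (Bcar1) are phosphorylated by focal adhesion kinase (Ptk2) and Src and pass signals on from the plaque. Fibroblasts are rich in these plaques, and the gene of vinculin is a known target of serum response factor. This transcription factor binds the CArG box, and its activity follows the state of the actin pool.

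RefSeq promoter sequences (build GRCm38.p6) were held for 6 of the 8 genes. The 250 bases before the start of 4 of them are shown, because the promoters of these 4 genes span the range of changes described below, from the largest rise to the only fall. All are given 5′ to 3′ on the strand of the gene. Capitals mark a CArG box, the TEAD motif GGAATG or the AP-1 motif TGANTCA, searched on both strands. No matches overlapped between motifs.
Tes, chr6:17064899-17065148, plus strand: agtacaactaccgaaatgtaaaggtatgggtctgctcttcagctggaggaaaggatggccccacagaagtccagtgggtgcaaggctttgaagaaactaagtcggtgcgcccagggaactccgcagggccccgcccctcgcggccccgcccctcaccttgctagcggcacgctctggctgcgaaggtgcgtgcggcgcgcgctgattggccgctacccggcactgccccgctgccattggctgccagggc
Zyx, chr6:42349578-42349827, plus strand: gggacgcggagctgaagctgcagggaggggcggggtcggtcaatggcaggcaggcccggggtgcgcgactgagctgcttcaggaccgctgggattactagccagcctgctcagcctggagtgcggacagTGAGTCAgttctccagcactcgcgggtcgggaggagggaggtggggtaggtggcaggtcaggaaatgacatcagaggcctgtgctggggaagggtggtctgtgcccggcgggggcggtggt
Vcl, chr14:20929148-20929397, plus strand: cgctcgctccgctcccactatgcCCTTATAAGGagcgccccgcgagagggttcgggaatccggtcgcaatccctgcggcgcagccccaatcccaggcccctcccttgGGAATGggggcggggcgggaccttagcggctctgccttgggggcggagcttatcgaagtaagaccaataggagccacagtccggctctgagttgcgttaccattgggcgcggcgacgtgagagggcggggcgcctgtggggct
Lpp, chr16:24393100-24393349, plus strand: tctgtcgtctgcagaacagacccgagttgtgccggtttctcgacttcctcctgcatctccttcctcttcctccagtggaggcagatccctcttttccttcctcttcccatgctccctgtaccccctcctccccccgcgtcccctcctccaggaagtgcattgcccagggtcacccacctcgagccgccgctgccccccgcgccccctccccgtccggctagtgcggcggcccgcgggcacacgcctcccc
The Vcl window held the CArG box CCTTATAAGG, which begins 227 bases before the start, and the TEAD motif at 143 bases. The Zyx window held the AP-1 motif TGAGTCA at 121 bases, and the Tes and Lpp windows shown held none of the 3 motifs. Another Lpp window, not shown (chr16:24721605-24721854), held the TEAD motif at 182 bases. Of 32817 RefSeq promoter windows of the same length, 1.47% held a CArG box, 12.6% the TEAD motif and 6.75% the AP-1 motif. These are matches of letters, and binding was not measured.

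Most of the scaffold gene promoters were more accessible in the active line, and apart from Tes and Ptk2 the rises did not pass the threshold once the shift of the surrounding chromosome was subtracted. All 6 promoter regions passed the threshold, with 5 higher (Tes, Ptk2, Zyx, Pxn, Vcl) and 1 lower (Lpp). Of all tested promoter regions, 59.0% were called, 22.4% higher and 36.6% lower. Among the 96 tested regions away from promoters, 36 were higher and 19 lower, against 60.4% of all such regions (33.2% higher, 27.1% lower). In all, 61 of 102 tested regions (59.8%) changed, 41 of them up and 20 down, where 60.1% of all 51253 tested regions did (30.9% up, 29.2% down), so the share that changed was near the background. Log2 changes are log2 fold changes of active over inactive from the fit, given ± SE. Their median was 0.09 over the members and -0.02 over all tested regions. Groups did not overlap in 61 of the 102 regions, against 62.3% of all tested regions. One Lpp region had a mean under 10 and was not tested. As the libraries are bulk, a change in the number of copies of a locus, in the share of cells in which it is open and in its openness per copy cannot be told apart.

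**Figure D1:**
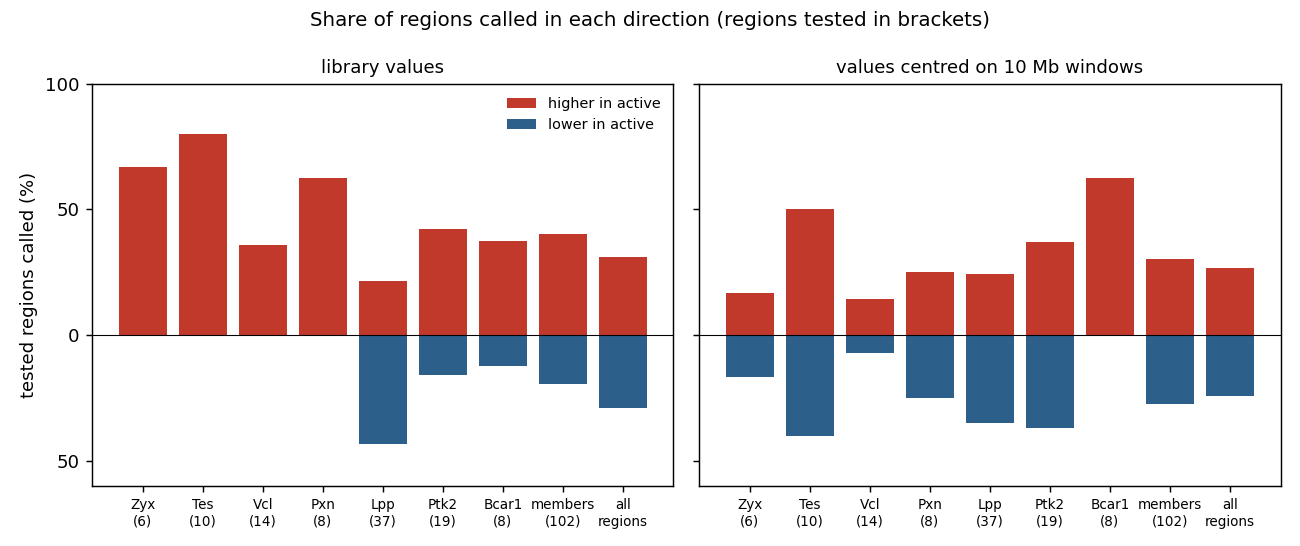
Share of tested regions called higher (up) or lower (down) in the active line, in percent, for each gene, for all member regions and for all regions of the table, from library values on the left and from values centred on 10 Mb windows on the right. On the left the bars of Zyx, Tes, Vcl and Pxn hold rises alone, and on the right every gene but Bcar1 has falls too.

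Vcl encodes vinculin, the linker between talin and actin. Its promoter region (chromosome 14, 20978984 to 20979796 on mm39, 76 bp from the start site) held 873, 891 and 832 normalised reads in active libraries, against 736, 797 and 775 in inactive ones. All 3 active libraries lay above all 3 inactive ones, yet the rise was the smallest of the 5, with means of 865.3 ± 30.2 in active and 769.3 ± 30.9 in inactive libraries (SD, n = 3). The log2 change was 0.17 ± 0.05 (limma adjusted p = 0.003229), and the call was lost in limma without trend (adjusted p = 0.134). Here and below, without trend stands for a limma fit with neither the trend nor the robust option.

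Zyx encodes zyxin, a LIM protein that recruits Ena/VASP proteins to strained actin. Its promoter held the most reads of all 103 regions (chromosome 6, 42325966 to 42327347, 93 bp from the start site), with 1522, 1709 and 1558 in active libraries, against 1220, 1212 and 1196 in inactive ones. The groups did not overlap, and the active mean was 1.32-fold higher (1596 ± 99.2 in active and 1209 ± 12.2 in inactive libraries, SD, n = 3, log2 change 0.40 ± 0.04, limma adjusted p = 8.19e-11).

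Tes encodes testin, a LIM protein that binds zyxin. Its promoter (chromosome 6, 17065000 to 17065961, 333 bp from the start site) changed most among the promoters. It held 204, 219 and 226 in active libraries, against 95, 76 and 92 in inactive ones, 2.47-fold higher (log2 change 1.30 ± 0.11, limma adjusted p = 9.915e-14). The lowest active library was more than 100 normalised reads above the highest inactive one.

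Lpp encodes a zyxin relative that also moves to the nucleus. Its promoter (chromosome 16, 24211496 to 24212881, 68 bp from the start site) held 467, 488 and 508 in active libraries, against 526, 548 and 596 in inactive ones. It was the only promoter that fell, without overlap, by 0.19 ± 0.06 on the log2 scale (limma adjusted p = 0.006528). The call was lost without inactive replicate 3 (log2 change -0.14) and in limma without trend (adjusted p = 0.125).

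Pxn encodes paxillin, an adaptor for kinases and GTPase regulators. Its promoter (chromosome 5, 115644484 to 115645166, 90 bp from the start site) held 216, 286 and 240 in active libraries, against 184, 213 and 220 in inactive ones. This was the only promoter whose groups overlapped. The log2 change of 0.26 ± 0.09 (limma adjusted p = 0.01408) lost its call without active replicate 2 (0.15), without inactive replicate 1 (0.18), with libraries thinned to equal depth (0.22) and in limma without trend (adjusted p = 0.15).

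Ptk2 encodes focal adhesion kinase, which phosphorylates both adaptors. Its promoter (chromosome 15, 73294510 to 73295740, 4 bp from the start site) held 464, 519 and 476 in active libraries, against 363, 356 and 385 in inactive ones. The groups did not overlap, and the active mean was 1.32-fold higher (log2 change 0.40 ± 0.06, limma adjusted p = 1.168e-06).

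Bcar1 encodes p130Cas, a docking protein that is stretched under tension. No region within 1000 bp of its listed start was analysed. The nearest was a wide region 2622 bp upstream (chromosome 8, 112472326 to 112473799), with 545, 519 and 549 in active libraries, against 533, 555 and 582 in inactive ones. These overlapped and the difference was not called (log2 change -0.05 ± 0.06, limma adjusted p = 0.4677). A smaller region 4253 bp upstream held 189, 198 and 187 in active libraries, against 165, 173 and 158 in inactive ones. Its groups did not overlap, and it passed narrowly (0.21 ± 0.09, limma adjusted p = 0.04253), but the call was lost with the replicate number as a block (adjusted p = 0.0526), in limma without trend (adjusted p = 0.0768) and without any single library except inactive replicate 2 (adjusted p from 0.0531 to 0.142 in the other 5 fits). RefSeq (GRCm38.p6) held windows before different Bcar1 starts, at 111743850 to 111744099 and at 111732137 to 111732386. A region 11.6 kb into the gene (112458430 to 112459211), named after its values were seen, held 332, 325 and 342 in active libraries. Inactive libraries held 390, 361 and 357, and the difference was not called (-0.15 ± 0.07, limma adjusted p = 0.05801). Whether it lies at either start was not tested, as the builds differ.

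**Figure D2:**
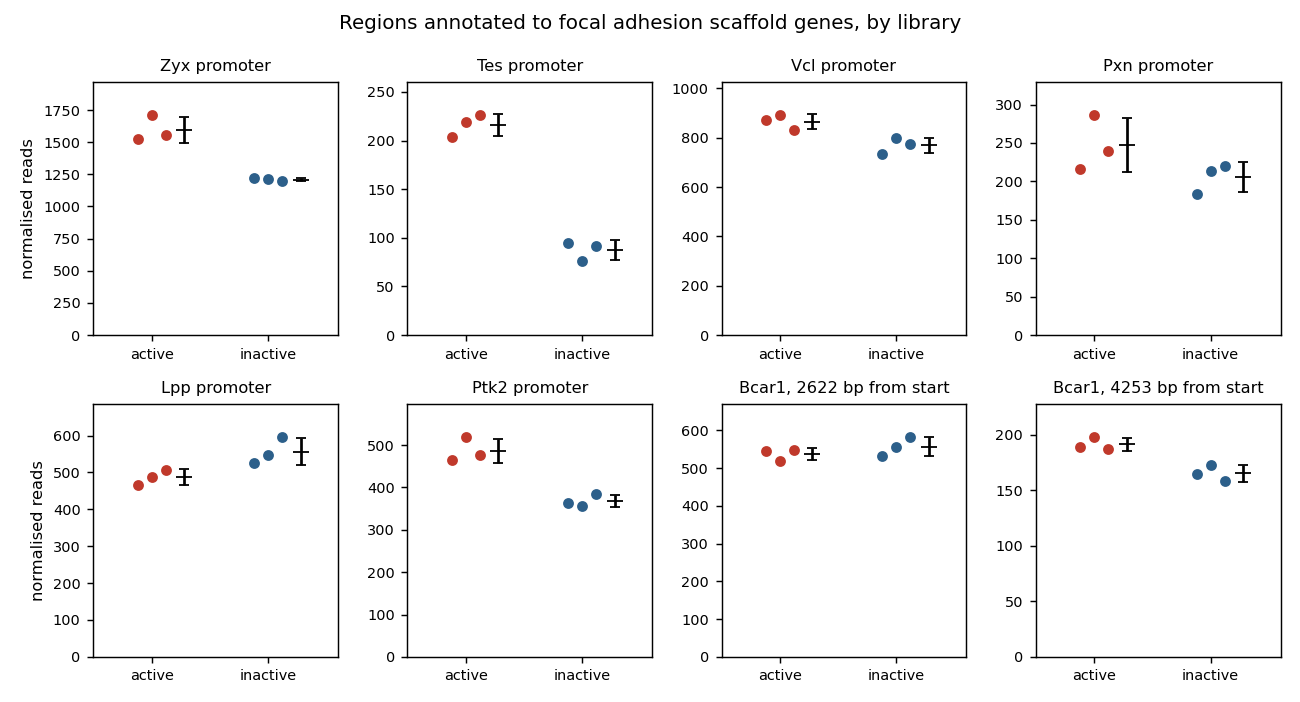
Normalised reads per library (y axis, from 0) in the 6 promoter regions and the 2 regions annotated to Bcar1, with active libraries in red on the left and inactive libraries in blue on the right; black bars give mean and SD of 3 libraries. Zyx, Tes, Vcl and Ptk2 promoters lie higher in all active libraries, Lpp lies lower, and the Pxn promoter and the nearer Bcar1 region overlap.

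The genes lie on chromosome segments that were themselves shifted between the lines. The median log2 fold change of the other regions in the gene's 10 Mb window was 0.94 at Tes (132 regions), 0.43 at Zyx (126), 0.31 at Pxn (304), 0.19 at Ptk2 (353), 0.12 at Vcl (298), -0.05 at Lpp (272) and -0.08 at Bcar1 (233). In the Tes window 80.3% of these regions were called higher and 2.27% lower, and in the Zyx window 67.5% and 6.35%. Both genes lie on chromosome 6, whose median was 0.31.

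Measured against their surroundings, 2 of the 6 promoters remained higher. For this, the median deviation of the 10 Mb window was subtracted from each library before the fit, a shift of 0.92 at Tes and 0.46 at Zyx. With such centred values 38.9% of all tested promoter regions were called, 13.9% higher, and 2789 of 11143 were lower. The Tes promoter kept a log2 change of 0.38 ± 0.11 (limma adjusted p = 0.003613) and Ptk2 one of 0.18 ± 0.06 (limma adjusted p = 0.01593). The other 4 did not pass, with Vcl at 0.02, Zyx at -0.07, Pxn at -0.08 and Lpp at -0.14 (limma adjusted p = 0.7763, 0.2022, 0.4979 and 0.05259).

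The width of the window mattered at 3 promoters. With fixed 5 Mb windows the Ptk2 promoter lost its call (0.02, limma adjusted p = 0.864), while the Zyx promoter became lower than its surroundings (-0.13, adjusted p = 0.0192) and so did Lpp (-0.19, adjusted p = 0.00793). With a running window of 5 Mb to each side, Zyx was lower (-0.19, limma adjusted p = 0.000262), Ptk2 higher (0.17, adjusted p = 0.0258) and Lpp not called (-0.12, adjusted p = 0.0923). The Tes promoter stayed higher with both window types (0.40 and 0.32, limma adjusted p = 0.00227 and 0.0119) and in each fit without 1 library, but missed the threshold in limma without trend (adjusted p = 0.0508). The centred Ptk2 rise lost its call without active replicate 2 (0.15, limma adjusted p = 0.0599), without inactive replicate 2 (0.14, adjusted p = 0.106) and without trend (adjusted p = 0.148). The centred Zyx value was called lower without active replicate 2 (-0.12, limma adjusted p = 0.0149), and that of Lpp without active replicate 3 (-0.17, adjusted p = 0.0272) or inactive replicate 1 (-0.19, adjusted p = 0.0286).

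Other promoters in the same windows give a second comparison. Of 14 other promoter regions in the Tes window, 0 had a larger log2 fold change than the Tes promoter, and their median was 0.85. In the Ptk2 window 18 of 103 other promoters lay above it (median 0.15), in the Zyx window 14 of 42 (median 0.33) and in the Vcl window 16 of 49 (median 0.06). The Pxn promoter had 46 of 83 above it (median 0.28), and Lpp had 35 of 51 (median -0.11). These ranks are descriptions without a test.

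**Figure D3:**
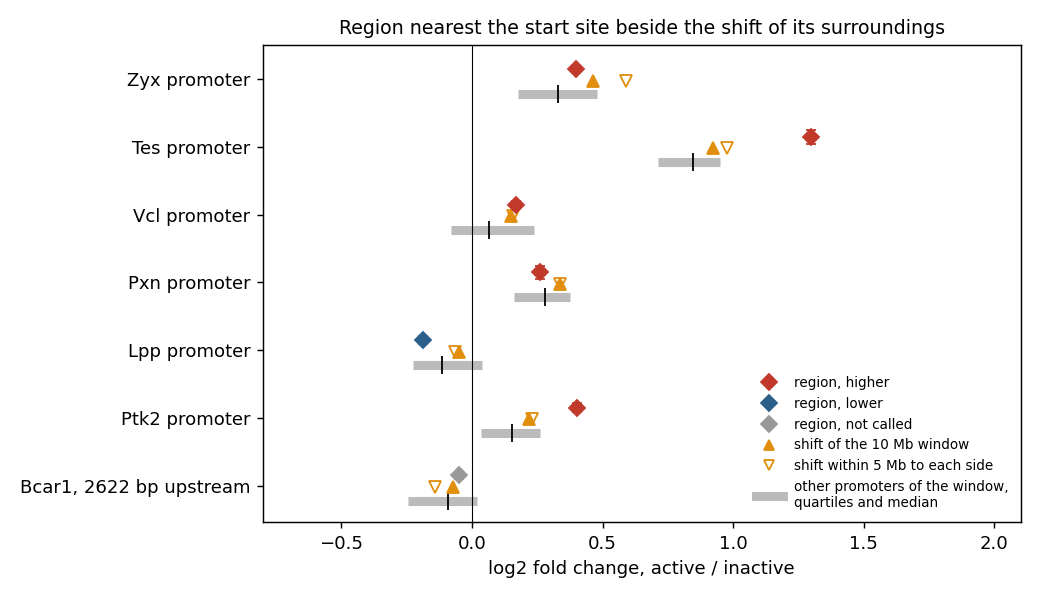
Log2 fold change, active over inactive (x axis), of the promoter region of each gene, and for Bcar1 of the region 2622 bp upstream (diamonds, with SE), beside the shift of its 10 Mb window (filled triangles), the shift within 5 Mb to each side (open triangles) and the quartiles and median of the other promoters in the window (grey bars). The Tes diamond, at 1.30, stands to the right of its window shift of 0.92 and of its grey bar, and the Zyx diamond, at 0.40, stands left of both triangles.

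Away from promoters the 96 tested regions moved both ways. With centred values 29 were higher and 28 lower, against 54.4% called of all tested regions away from promoters (30.2% higher, 24.1% lower). Over all 102 regions 31 were higher and 28 lower (51.0% of all tested regions, 26.7% higher and 24.3% lower), and 44 regions were called in the same direction with and without centring. Another 15 lost their call and 13 gained one. The remaining 2, both downstream of Tes, were called higher in library values and lower with centred ones.

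**Figure D4:**
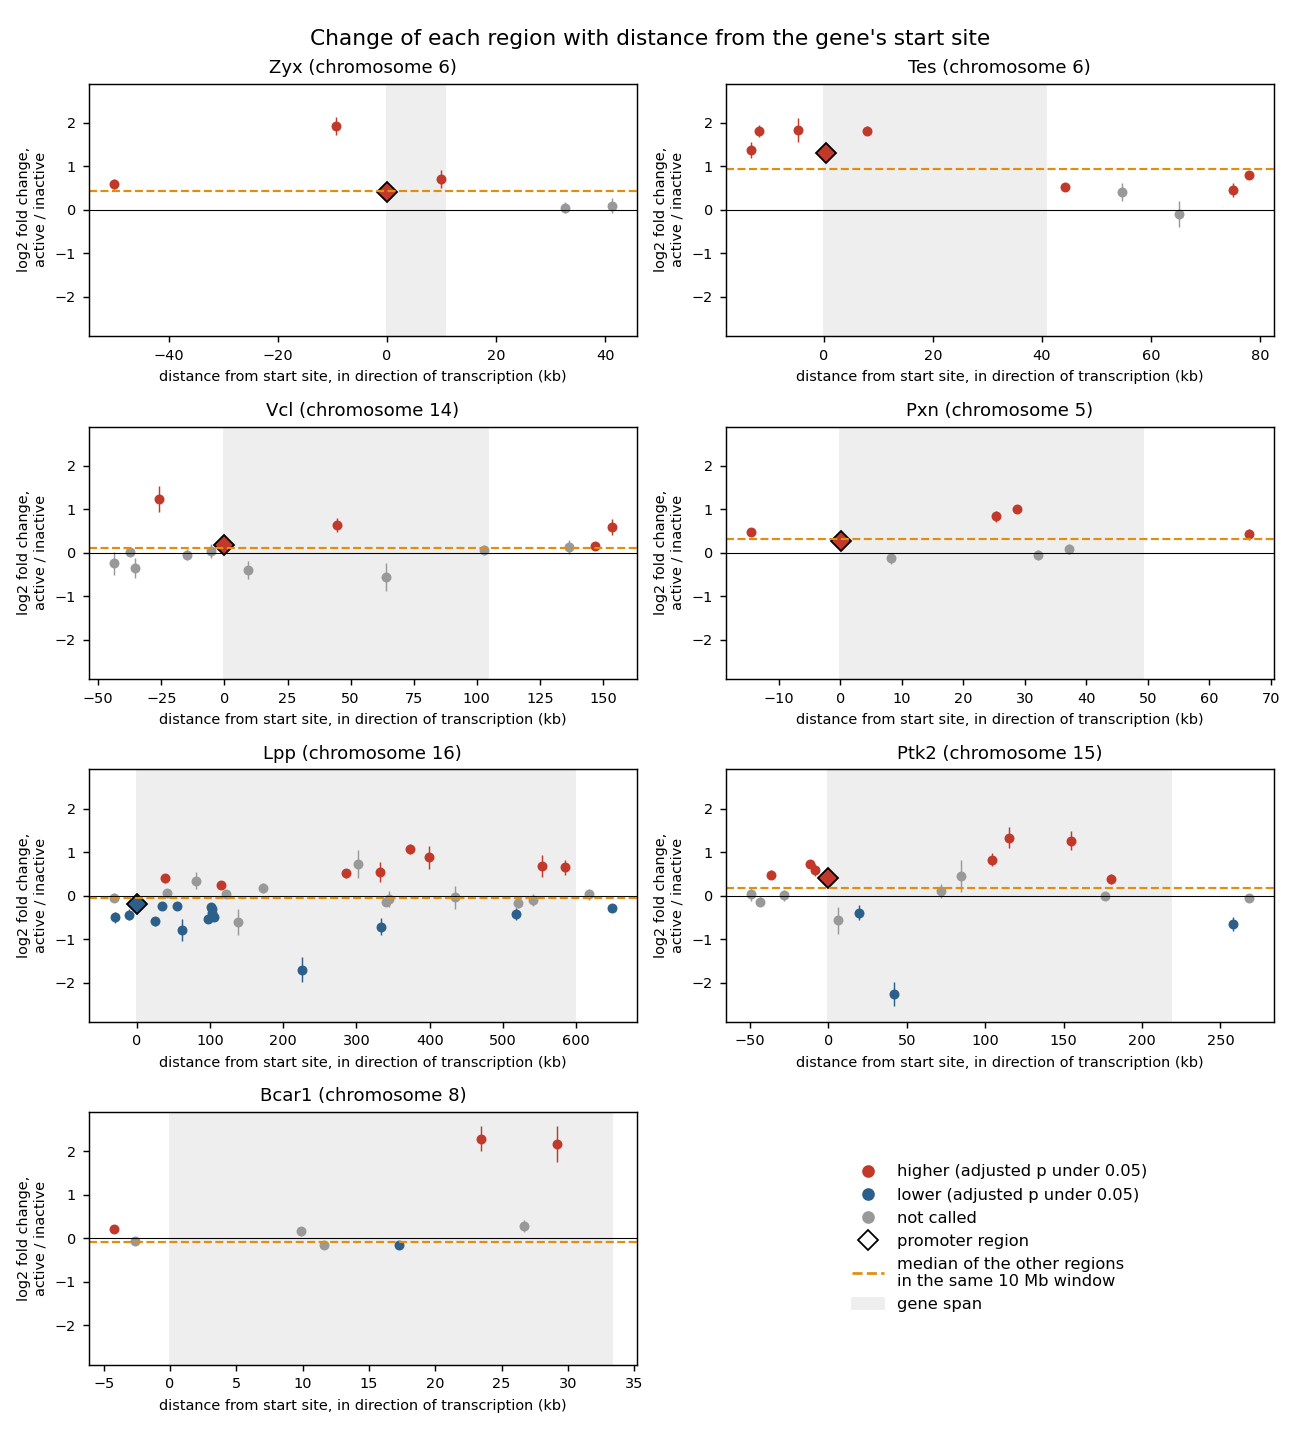
Log2 fold change with SE (y axis) of every tested region against its distance from the start site of the gene in kb, counted in the direction of transcription (x axis). Diamonds are promoters, colours give the call, grey bands the gene span, and dashed lines the median of the other regions in the 10 Mb window. Regions on the 5′ side of Tes lie above its dashed line and those past its end below it, and at Lpp falls gather on the 5′ side.

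At Tes, the 5′ side stood higher than the 3′ side, a description without a test of the difference. Of its 9 distal regions 7 rose, near the share of the window, and with centred values 4 were higher and 4 lower. Regions upstream and at the start of the gene span had log2 fold changes of 1.30 to 1.83, and the 5 regions past its end, 44.2 to 78.0 kb from the start, had -0.09 to 0.79. The annotated region 4813 bp upstream held 36, 44 and 38 in active libraries, against 11, 14 and 7 in inactive ones (1.83 ± 0.27, limma adjusted p = 1.761e-07). A region 11.9 kb upstream (17053058 to 17053454) held 156, 148 and 150 in active libraries, against 46, 41 and 40 in inactive ones. A region inside the gene span 7.95 kb from the start (17072783 to 17073422), named after its values were seen, held 328, 299 and 294 in active libraries, against 87, 75 and 99 in inactive ones (log2 fold change 1.81). All 3 were thus 3.53- to 3.69-fold higher with no overlap. They also stayed higher with centred values (0.91, 0.89 and 0.89). The region with the most reads past the gene (17142733 to 17143520, 78.0 kb from the start) held 384, 406 and 354 in active libraries, against 225, 225 and 210 in inactive ones. Its log2 fold change of 0.79 went to -0.13 with centred values and was not called (limma adjusted p = 0.1303). Of the 5 regions past the gene, 4 were lower and 0 higher with centred values.

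At Zyx, 3 of 5 distal regions rose and 0 fell, a share near that of the window, and with centred values 1 of the 5 was higher and 1 lower. The largest rise was in a region 9285 bp upstream (42317048 to 42317510), which lies 2562 bp from the start of a small nuclear RNA gene without a symbol. It held 81, 69 and 75 in active libraries, against 14, 22 and 22 in inactive ones, 3.88-fold higher (log2 change 1.93 ± 0.20, limma adjusted p = 4.748e-11) and 1.46 with centred values. The distal region with the most reads, 32.5 kb from the start and past the gene (42358742 to 42359456), held 114, 92 and 95 in active libraries, against 94, 106 and 90 in inactive ones. Its groups overlapped (0.05, limma adjusted p = 0.7419), and against the raised window it was lower (-0.41, adjusted p = 0.004888).

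Around Vcl, 4 of 13 distal regions rose and 0 fell, and 9 did not pass the threshold. In the window 37.6% of the other regions were higher and 15.8% lower, and with centred values 2 of the 13 were higher and 1 lower. A low region 26.1 kb upstream (20953251 to 20953495) rose 2.5-fold, with 24, 21 and 25 in active libraries, against 8, 9 and 11 in inactive ones (log2 change 1.24 ± 0.30, limma adjusted p = 0.0005182). The one with the most reads, past the gene (21125818 to 21126742), held 526, 592 and 579 in active libraries, against 522, 507 and 490 in inactive ones. This small rise (0.16, limma adjusted p = 0.01984) lost its call without active replicate 2 (0.12), active replicate 3 (0.14) or inactive replicate 3 (0.13), without trend in limma (adjusted p = 0.178), with thinned libraries (0.13) and with centred values (0.01).

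Around Pxn, 4 of 7 distal regions rose and 0 fell, in a window where 57.6% of the other regions were higher and 8.22% lower. With centred values 2 of the 7 were higher and 2 lower. Of 5 distal regions inside the gene span, 2 rose, and the same 5 held both centred falls, at 115652585 (-0.46, limma adjusted p = 0.002867) and 115676660 (-0.39, adjusted p = 0.006411), named after their values were seen. The larger rise (115672986 to 115673995, 28.75 kb from the start) was 2.00-fold, with 418, 394 and 467 in active libraries, against 190, 208 and 241 in inactive ones. Its groups did not overlap, and it stayed higher with centred values (log2 change 0.67 ± 0.08, limma adjusted p = 5.759e-09). A region 14.6 kb upstream, 349 bp from the start of a processed pseudogene (115629920 to 115630409), held the most reads of those without a symbol, namely 541, 493 and 533 in active libraries, against 374, 403 and 349 in inactive ones (0.48, limma adjusted p = 3.854e-08), and 0.14 with centred values, which did not pass (adjusted p = 0.06673).

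Ptk2 had rises upstream and deep in the gene, and 2 falls in its first 50 kb. Of its 18 distal regions 7 rose and 3 fell, the third fall lying past the gene. In its window 44.8% of the other regions were called higher and 12.5% lower, and with centred values 6 of the 18 were higher and 7 lower. The one with the most reads lay 11.9 kb upstream (73306628 to 73307348) and held 682, 645 and 676 in active libraries, against 372, 433 and 407 in inactive ones, 1.65-fold higher (log2 change 0.73 ± 0.06, limma adjusted p = 1.962e-13). The groups were far apart, and it stayed higher with centred values (0.51). The largest rise lay 115.2 kb into the gene (73179695 to 73180090), with 41, 37 and 42 in active libraries, against 16, 17 and 13 in inactive ones (log2 change 1.33 ± 0.23, limma adjusted p = 4.523e-06).

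The largest fall of all 103 regions was also in Ptk2, 41.9 kb into the gene (73253085 to 73253438). It held 7, 12 and 6 in active libraries, against 39, 51 and 38 in inactive ones, a ratio of 0.195 (log2 change -2.27 ± 0.28, limma adjusted p = 4.675e-09). The groups were far apart, the window median had the opposite sign, and with centred values the region stood at -2.48. The active values are at most 12 normalised reads, so that the ratio is imprecise. The log2 change was -1.85 with a pseudocount of 5 and -2.63 with quantile normalization. The 4 regions of the gene called higher, 104.4 to 180.0 kb from the start, had log2 changes of 0.38 to 1.33.

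Bcar1 carried the largest rises of the 103 regions, in 2 low regions near the 3′ end of the gene span. Of its 8 regions 3 rose and 1 fell, against 24.0% higher and 33.0% lower in the window, and with centred values 5 were higher and 0 lower. The region 23.4 kb from the start (112446870 to 112447136) held 40, 42 and 35 in active libraries, against 6, 10 and 6 in inactive ones, 5.32-fold higher (log2 change 2.29 ± 0.29, limma adjusted p = 6.059e-09). The region 29.2 kb from the start (112441163 to 112441374), named after its values were seen, held 10, 30 and 29 in active libraries, against 3, 6 and 3 in inactive ones (2.17, limma adjusted p = 2.477e-05). Neither pair of groups overlapped, but the inactive values are at most 10 normalised reads, so that the folds are imprecise. The Bcar1 region with the most reads, between these regions and the start of the gene (112452743 to 112453632), went slightly the other way. It held 639, 648 and 683 in active libraries, against 696, 725 and 761 in inactive ones (-0.15 ± 0.05, limma adjusted p = 0.0157). That call was lost without active replicate 1 (-0.13) or inactive replicate 3 (-0.11), with thinned libraries (adjusted p = 0.0587), without trend in limma (adjusted p = 0.188) and with centred values (-0.08).

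**Figure D5:**
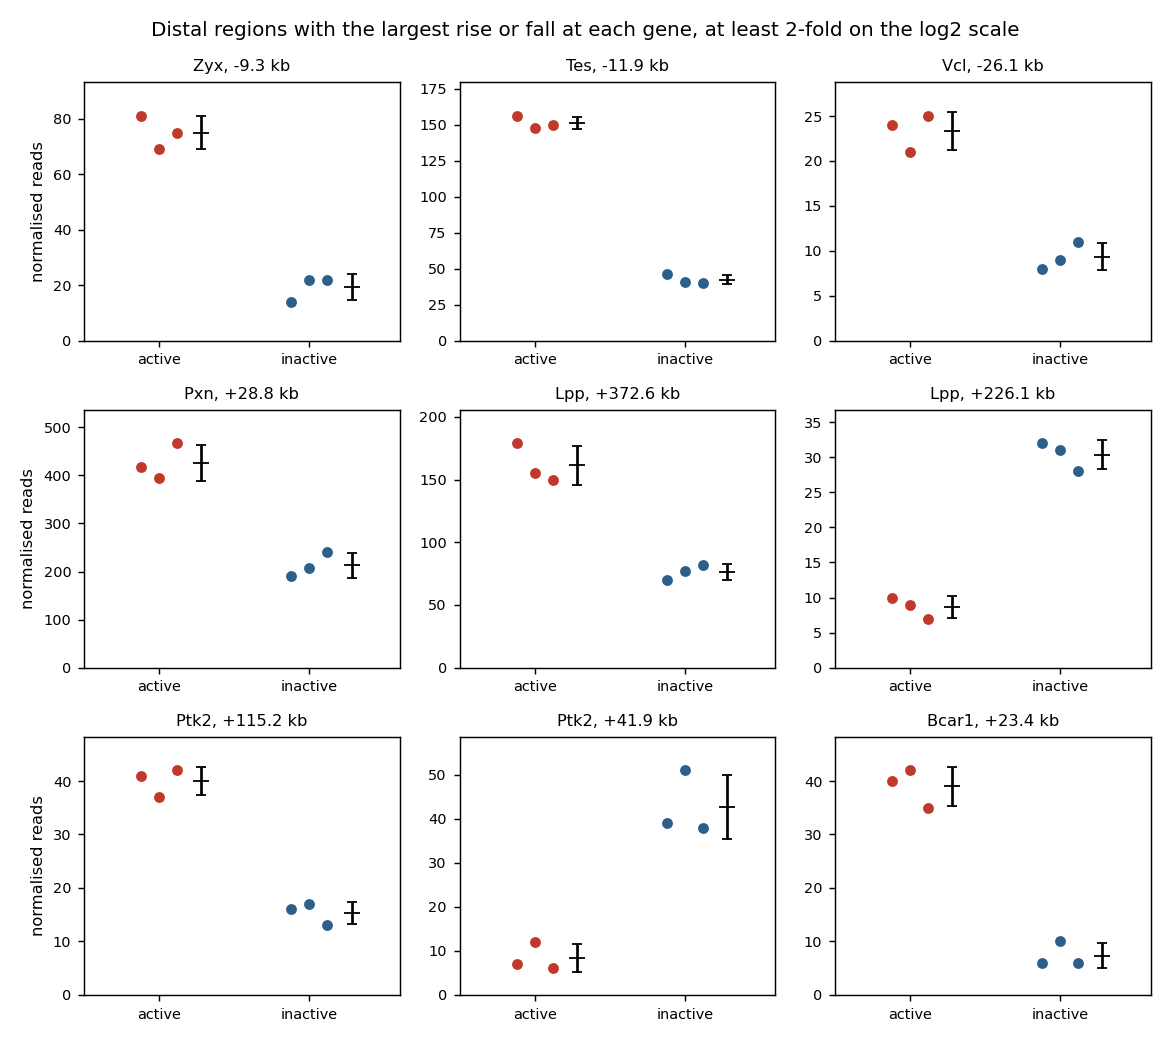
Normalised reads per library (y axis, from 0) in the 9 distal regions without a symbol that had the largest rise or fall at a gene and changed at least 2-fold on the log2 scale, titled by gene and distance from its start site, with active libraries on the left, inactive libraries on the right, and mean and SD of 3 in black. In each panel the groups are apart, with Lpp at +226.1 kb and Ptk2 at +41.9 kb lower in the active line.

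Lpp, the longest gene of the group with a listed span of 599 kb, was the only one with more falls than rises. Of its 37 tested regions 8 rose and 16 fell. The other regions of its window were also called lower (34.2%) more often than higher (27.9%), and with centred values 9 of the 37 were higher and 13 lower. Of the 17 regions up to 120 kb from the start, upstream ones included, 12 fell and 2 rose, and of the 21 regions beyond that point 4 fell and 6 rose, a division made after the values were seen and not tested. The 17 regions summed to 3400 to 3594 normalised reads in active and 3947 to 4144 in inactive libraries, whereas the other 21 summed to 1689 to 1872 in active and 1698 to 1724 in inactive libraries. The point of division follows where the falls lie, so the gap between the groups on the 5′ side is part of how it was chosen.

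Single Lpp regions changed in both directions. A low region 226.1 kb into the gene (24438146 to 24438618) held 10, 9 and 7 in active libraries, against 32, 31 and 28 in inactive ones (log2 change -1.71 ± 0.29, limma adjusted p = 2.579e-06). A region 372.6 kb into the gene (24584502 to 24585285) held 179, 155 and 150 in active libraries, against 70, 77 and 82 in inactive ones (1.07 ± 0.12, limma adjusted p = 1.996e-10). Groups were apart in both regions, and both calls were kept with centred values (-1.66 and 1.12). The region without a symbol that held the most reads (24253242 to 24254299, 41.5 kb from the start) held 418, 440 and 470 in active libraries, against 438, 455 and 382 in inactive ones, with overlapping groups (0.06, limma adjusted p = 0.4449).

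Summed over each gene's regions, Tes differed most. The Tes sum was 1649, 1569 and 1537 in active libraries, against 814, 741 and 753 in inactive ones (log2 ratio 1.04), and the Pxn sum 1842, 1735 and 1831 in active libraries, against 1228, 1336 and 1343 in inactive ones (0.47). The Zyx sum had a log2 ratio of 0.43, Ptk2 0.27, Vcl 0.13 and Lpp -0.13. These 6 sums did not overlap between the groups, and the exact two-sided permutation test gave p = 0.1 for each, the smallest that 3 against 3 libraries can give (0.117 adjusted over the 7 genes). The Bcar1 sum overlapped, with a mean of 2043 ± 57.5 in active libraries and 2057 ± 42.5 in inactive ones (SD, n = 3, exact permutation p = 0.8). Divided by the window shift, the log2 ratio went to 0.12 at Tes, 0.14 at Pxn, 0.06 at Ptk2, 0.06 at Bcar1, -0.02 at Vcl, -0.04 at Zyx and -0.08 at Lpp (exact permutation p = 0.1, or 0.5 at Vcl and Zyx, adjusted 0.14 and 0.5).

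In library values, other focal adhesion genes changed about as often as the rest of the table. Of 66 listed integrins, kinases, adaptors and actin binders, 50 had a region in the table, and of their 80 tested regions 20 were higher and 27 lower (58.8% called, against 60.1% of all tested regions). Among 45 promoters 9 were higher and 16 lower (55.6% called), near the 22.4% higher and 36.6% lower of all tested promoters, with a median log2 fold change of -0.08, against -0.10 over all promoters. With centred values, 15 of the 80 regions were higher and 17 lower. Both shares lay below the 26.7% higher and 24.3% lower of all tested regions. Evl, of the Ena/VASP family that zyxin recruits, rose most among the 45 tested promoters, with 248, 307 and 262 in active libraries, against 119, 96 and 109 in inactive ones (1.33, limma adjusted p = 7.572e-15, and 0.75 with centred values). The promoter of Cass4, a relative of p130Cas named after its values were seen, had a mean under 10 and was not tested, with 17, 18 and 11 in active libraries, against 1, 2 and 0 in inactive ones. The promoter of Limk1, a kinase that inactivates cofilin, rose by 0.44 (0.14 with centred values, and not called in 5 Mb windows). Rock2, a kinase that drives contraction, rose by 0.38 in library values but was lower with centred ones (-0.24, limma adjusted p = 0.0001216).

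The largest falls among these promoters were at Pdlim1, an actin-associated PDZ-LIM protein (-0.64), Kank2, a talin-binding protein (-0.56), and Rock1, the relative of Rock2 (-0.51). All 3 passed the threshold in library values (limma adjusted p = 5.029e-07, 1.954e-07 and 9.866e-11). With centred values Pdlim1 was at -0.40 and Rock1 at -0.17, both still lower, and Kank2 at 0.16, which did not pass (adjusted p = 0.09654). In a running window Rock1 lost its call (-0.04).

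The promoters closest in profile to that of Tes belonged to Ldb3, Sox11 and Gm9955, at Euclidean distances of 0.113, 0.136 and 0.171 over the 6 libraries on the mean-centred log2(value + 1) scale, among 9644 promoters of other named genes. Ldb3 held 158, 182 and 182 in active libraries, against 79, 59 and 77 in inactive ones. The distances left the window shifts in. Centred on 10 Mb windows, the log2 change was 0.38 at Tes and 0.42 at Sox11, but 1.10 at Ldb3 and 1.4 at Gm9955. In RefSeq gene order (GRCm38.p6) Tln1, the gene of talin-1, lies between Tpm2 and Creb3, whose 6 regions, no members of the group, moved both ways. A Tpm2 region 3524 bp from its start (0.75, limma adjusted p = 0.00095) and a Creb3 region 1950 bp from its start (0.75, adjusted p = 0.0001702) were higher, and 3 regions were not called. The Creb3 promoter region held 384, 417 and 384 in active libraries, against 426, 474 and 497 in inactive ones (-0.24, limma adjusted p = 0.00226, lost in limma without trend at 0.0841). The RefSeq window before the Tln1 start (minus strand, GRCm38.p6) runs from 43562584 to 43562833 on chromosome 4. These positions fall inside the listed bounds of the Creb3 promoter region, 43561890 to 43562945. Region bounds are on mm39 and positions were not converted between builds, so whether Tln1 shares this promoter region was not tested. Whether the 6 regions speak for Tln1 was not tested either.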

How the data were processed

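ATAC-seq values of 6 NIH3T3 libraries, 3 active and 3 inactive, were read from 1 table over 52957 regions. Per the labels' protocols, transposition took place in whole cells opened with digitonin. Trimmomatic 0.39, featureCounts, Picard 3.1.1, DESeq2 1.36.0 and STAR 2.7.11a, with build mm39, are named per the submitters' processing notes. Which peak caller was used, and whether reads were shifted for Tn5, is not given in the sources used here. The deposited values were treated as a score. They look like reads divided by a size factor per library and rounded. This was inferred from nearly equal totals and from whole numbers skipped in 2 columns. Size factors were estimated from skipped or overfilled whole numbers, with pattern correlations of 0.905 (active replicate 3) to 0.996 (active replicate 2). They served for the estimated depths, the thinning and the simulated data, and count tests were not used.

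The 51253 regions whose mean was 10 or more entered a limma 3.58.1 fit (R 4.3.3, trend and robust) of log2(value + 1), with Benjamini-Hochberg adjustment over all of them and a threshold of 0.05. Log2 fold changes are active over inactive and understate changes of low regions. Ratios given as a fold are of group means. Centred values have the library's median deviation in the fixed 10 Mb window subtracted. Gene sums used exact permutation tests (scipy 1.17.1, Python 3.11.15). On simulated data with 51253 regions the fit called 33 of 100 true 1.5-fold changes, 75 of 100 true 2-fold changes and 2 unchanged regions, and with simulated window shifts and centring 37, 77 and 3. Only these changes were simulated, with an assumed spread between libraries, whereas 60.1% of all tested regions were called in the data. These rates therefore do not carry over to the data. Members, lists and rules were chosen with earlier results of these data known. The regions named were those annotated to a member and, of its regions without a symbol, the one with the most reads, the largest rise and the largest fall past the threshold; of the other focal adhesion genes, the 3 largest promoter rises and falls. The mm39 exon annotation was not used here, so regions within a gene span are not assigned to exons or introns, and promoter sequences from GRCm38.p6 were matched by symbol alone.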

Additional observations from a re-analysis of the deposited data

How the results depend on the processing

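Of 61 member regions called in library values, 37 (28 higher, 9 lower) kept call and direction under each of 13 alternatives without centring, and 0 changed sign. The most were lost in limma without trend and robust (15) and with libraries thinned to equal depth (13). Over the fits without 1 library, promoter calls numbered 4 to 5 higher and 0 to 1 lower, and with centred values 1 to 2 higher and 0 to 1 lower. In limma without trend, 3 promoters were higher and 0 lower, and 0 were higher with centred values. With centred values, 1 promoter was lower with a pseudocount of 5, with thinned libraries and in the running window, while 5 Mb windows gave 1 higher and 2 lower, against 2 and 0. With thinned libraries the centred falls numbered 16, against 28, and away from promoters 15, against 28. The causes were not tested.

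The sums of Zyx (-0.037), Vcl (-0.020) and Bcar1 (0.062) changed sign with window-centring, and without 1 library the Bcar1 sum ran from -0.033 to 0.0047. Promoter values that changed sign when centred on 10 Mb, 5 Mb and running windows were Zyx (-0.065, -0.13, -0.19), Pxn (-0.076, -0.11, -0.079), Rock2 (-0.24, -0.22, -0.26) and Kank2 (0.16, 0.14, 0.13). So did the regions at 42358742 (-0.41, -0.47, -0.54, and -0.0039 with quantile normalization), 17142733 (-0.13, -0.11, -0.21) and 112472326 (0.022, 0.11, 0.092), that at 21125818 in the running window (-0.00028) and that at 112452743 in 5 Mb windows (0.011). The region at 24253242 went to -0.020 with thinned libraries. Without 1 library, 42358742 ran from -0.044 to 0.12 and 24253242 from -0.014 to 0.11. Same-numbered libraries did not deviate together (correlations of -0.016 to 0.001). With the replicate number as a block, 42 member regions were higher and 20 lower, against 41 and 20, and 1 call, at Bcar1, was lost. Values near or below 10 reads in the libraries of either group limit the folds of low regions.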
